A study of Mus musculus with 7 samples.

Results

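The contact map of embryonic stem cells (ESCs) that carry the Inv1 inversion was compared with that of E11.5 limb buds that carry the same inversion, over the 10 Mb around Epha4 on mouse chromosome 1 (71 to 81 Mb, build mm9). These were 2 of the 7 libraries of the series, chosen by their titles, with 1 library on either side. The maps list 316922 pairs of 10 kb bins in Inv1 ESC and 283672 in Inv1 limb buds. The assay was capture Hi-C, in which chromatin is cut with DpnII, ligated within the nucleus and enriched for the region with probes, so that each read pair records a contact. Inv1 is a CRISPR/Cas9 inversion, present in both libraries; the Inv1 limb bud library pooled forelimb and hindlimb buds of 10 embryos and its title also reads Distal, and the Inv1 ESC library came from 1 mutant line in culture. Beside them stand Inv1DelCTCF limb buds, which carry Inv1 and a further deletion that the title names after CTCF, and WT limb buds without an inversion, also 10 embryos each at stage E11.5. The labels give G4 ESC as cell type and limb bud as source for every library, so that only the title and the design text mark the ESC library as such, and contact maps hold no expression by which to check it.

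Limb buds at this stage are a mixture of mesenchyme, ectoderm and other cells, and ESCs are a culture of pluripotent cells. In a population map a contact made by fewer cells and a contact made less often per cell cannot be told apart. Chromosomes fold into domains, often bounded by sites of the DNA-binding protein CTCF, where the cohesin complex that extrudes DNA loops is held back. Over longer distances, active and inactive chromatin tend to meet their own kind, and in ESCs silent developmental genes bound by Polycomb proteins are known to contact each other over megabases. No protein binding was measured here. Epha4, the gene of the locus, encodes a receptor for ephrins, guidance cues carried on the surface of neighbouring cells.

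Dividing each balanced value by the factors of its bins gave back 4305909 read pairs in Inv1 ESC and 3903613 in Inv1 limb buds, with 3997506 in Inv1DelCTCF and 5155259 in WT limb buds. Intervals below are 95% counting intervals. They cover counting error only, and none measures the spread between cultures or embryos. The difference between the limb libraries, which also differ in genotype, is given as a scale. No test was made. In the coordinates of the rearranged chromosome, which both maps share, the inverted segment was taken to run from 75.29 to 75.90 Mb, where the maps of the other inversions stop differing from WT. The best match of the bin factors to those of WT read backwards ended 20 kb earlier, at 75.88 Mb, in both maps. Over those 59 bins, chosen for the match, the correlation was 0.58 in Inv1 ESC and 0.57 in Inv1 limb buds, and read forwards it was -0.06 and -0.11. Places given in WT order follow from the end at 75.88 Mb.

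The genes of 4 stretches could be placed between breakpoints of the series' inversions from the gene order of the deposited gene tables. Wnt6, Wnt10a, Cdk5r2 and Fev lie at 74.79 to 74.93 Mb. Wnt6 and Wnt10a encode secreted Wnt ligands, Cdk5r2 an activator of the kinase Cdk5, and Fev a transcription factor of the ETS family that acts in serotonergic neurons. The 6 genes from Cryba2 to Slc23a3, with the hedgehog ligand gene Ihh among them, lie at 74.93 to 75.13 Mb, and the 13 genes from Cnppd1 to Resp18 at 75.13 to 75.29 Mb. In WT order, Dnpep, Des, Speg and the genes next to them in the table begin at 75.29 Mb. On the Inv1 chromosome they lie in the right piece of the inverted segment, described further on. Which 10 kb bin holds a given gene could not be settled.

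The stretch from Wnt6 to Fev held 1 anchor, at 74.83 Mb, of the focal contact that stood furthest above its ring in the ESC map (values further on), so the promoters of its genes are shown. They are from RefSeq, in build GRCm38.p6, whose coordinates differ from those of the maps, and give 250 bases up to the transcription start with CG dinucleotides in capitals. Of the 4 genes, Wnt6, Cdk5r2 and Fev matched the table and Wnt10a did not.
Wnt6 promoter, GRCm38.p6 chr1:74771642-74771891, plus strand: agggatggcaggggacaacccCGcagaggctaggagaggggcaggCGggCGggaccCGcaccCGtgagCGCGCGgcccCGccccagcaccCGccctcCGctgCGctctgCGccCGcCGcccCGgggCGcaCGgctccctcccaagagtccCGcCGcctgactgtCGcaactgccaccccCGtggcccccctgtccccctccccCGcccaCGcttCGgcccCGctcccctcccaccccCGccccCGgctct
Cdk5r2 promoter, GRCm38.p6 chr1:74854779-74855028, plus strand: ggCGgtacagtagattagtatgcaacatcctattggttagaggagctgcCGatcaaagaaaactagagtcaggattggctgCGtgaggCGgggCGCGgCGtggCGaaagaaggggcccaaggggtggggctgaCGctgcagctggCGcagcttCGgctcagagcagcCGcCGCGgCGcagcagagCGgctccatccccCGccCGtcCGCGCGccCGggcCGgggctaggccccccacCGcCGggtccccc
Fev promoter, GRCm38.p6 chr1:74885409-74885658, minus strand: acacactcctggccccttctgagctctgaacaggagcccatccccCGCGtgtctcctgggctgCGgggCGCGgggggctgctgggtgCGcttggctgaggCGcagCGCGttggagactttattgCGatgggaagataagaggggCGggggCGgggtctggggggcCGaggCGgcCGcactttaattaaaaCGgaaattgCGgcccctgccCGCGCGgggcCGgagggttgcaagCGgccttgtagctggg
The dinucleotide CG, which reads the same on both strands, occurred 28 times in the Wnt6, 25 times in the Cdk5r2 and 22 times in the Fev window. The median of 32851 RefSeq promoter windows of this length was 6, and 7.61%, 10.7% and 14.8% of them held as many. A map of 10 kb bins does not tell which of these promoters, if any, makes a contact.

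Contacts in Inv1 ESC were shifted from the shortest distances to those of 50 kb to 1 Mb and to those over 2 Mb. The share of balanced signal between bins 10 to 20 kb apart was 9.83% in Inv1 ESC, against 12.1% in Inv1 limb buds (log2 ratio -0.30, interval -0.31 to -0.29). Between 100 and 200 kb it was 10.8% in Inv1 ESC and 9.30% in Inv1 limb buds, and between 200 and 500 kb 15.8% and 14.1% in the same order. The direction turned between 1 and 2 Mb, the scale of the largest domain, with 6.97% in Inv1 ESC and 7.75% in Inv1 limb buds (log2 ratio -0.15, interval -0.16 to -0.15).

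**Figure D1:**
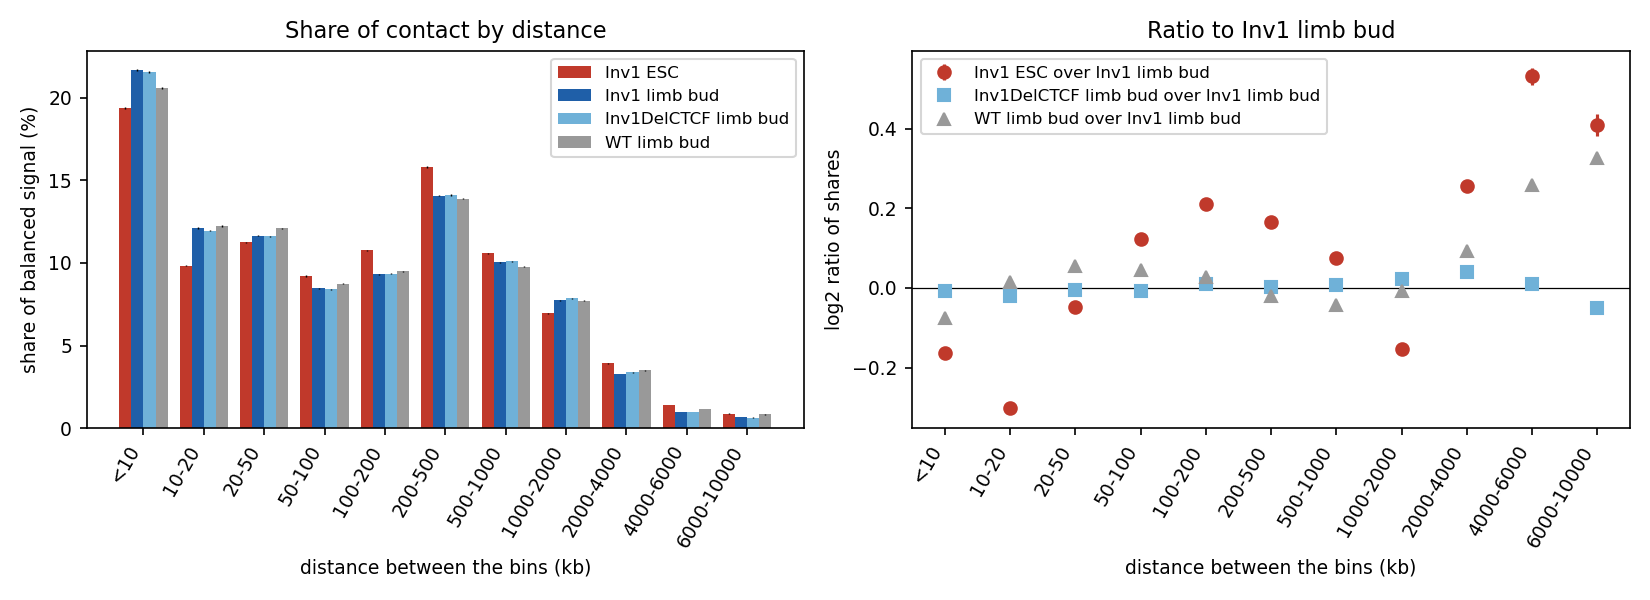
Share of balanced signal in 11 classes of distance between bins (left, percent, bars with 95% counting intervals) in Inv1 ESC, Inv1 limb buds, Inv1DelCTCF limb buds and WT limb buds, and log2 ratio of each share to that of Inv1 limb buds (right). The Inv1 ESC points run from -0.30 at 10 to 20 kb to 0.53 at 4 to 6 Mb and lie beyond the points of the other 2 limb libraries and beyond 0 on 1 side in every class.

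Beyond 2 Mb the Inv1 ESC share was higher again. It was 3.92% in Inv1 ESC and 3.28% in Inv1 limb buds at 2 to 4 Mb, and 1.40% in Inv1 ESC and 0.972% in Inv1 limb buds at 4 to 6 Mb (log2 ratio 0.53, interval 0.51 to 0.55). At 6 to 10 Mb it was 0.887% in Inv1 ESC and 0.668% in Inv1 limb buds. In each of the 11 distance classes the Inv1 ESC share lay outside the range of the 3 limb libraries. That margin was small at 6 to 10 Mb, where WT limb buds had 0.838%. Contact fell with distance between 1 and 3 Mb by a power-law slope of -1.56 in Inv1 ESC, against -1.95 in Inv1, -1.92 in Inv1DelCTCF and -1.84 in WT limb buds. Altogether 6.21% of the Inv1 ESC signal lay over 2 Mb, compared with 4.92% in Inv1 limb buds.

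Most borders lay at the same places in both maps, and 12 of the 15 shared ones were shallower in Inv1 ESC, some by little. A boundary was a local minimum of contact in a 200 kb square that slides along the map, with a depth of at least 0.2 on a log2 scale. There were 21 in Inv1 ESC (2.19% of bins) and 23 in Inv1 limb buds (2.4%), of which 15 lay within 30 kb of each other, 71.4% of the first and 65.2% of the second. Inv1DelCTCF limb buds also had 23, and 21 of them matched one of Inv1 limb buds. Of the shallower shared borders, those at 73.32, 75.11 and 75.56 Mb had an Inv1 ESC depth within the range of the limb libraries scored there. At 73.32 Mb the depth was 0.25 in Inv1 ESC and 0.26 in Inv1 limb buds. The insulation profile correlated at 0.90 between Inv1 ESC and Inv1 limb buds and at 0.98 between the Inv1DelCTCF and Inv1 limb bud libraries, over 950 overlapping squares that share the probes and the locus.

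**Figure D2:**
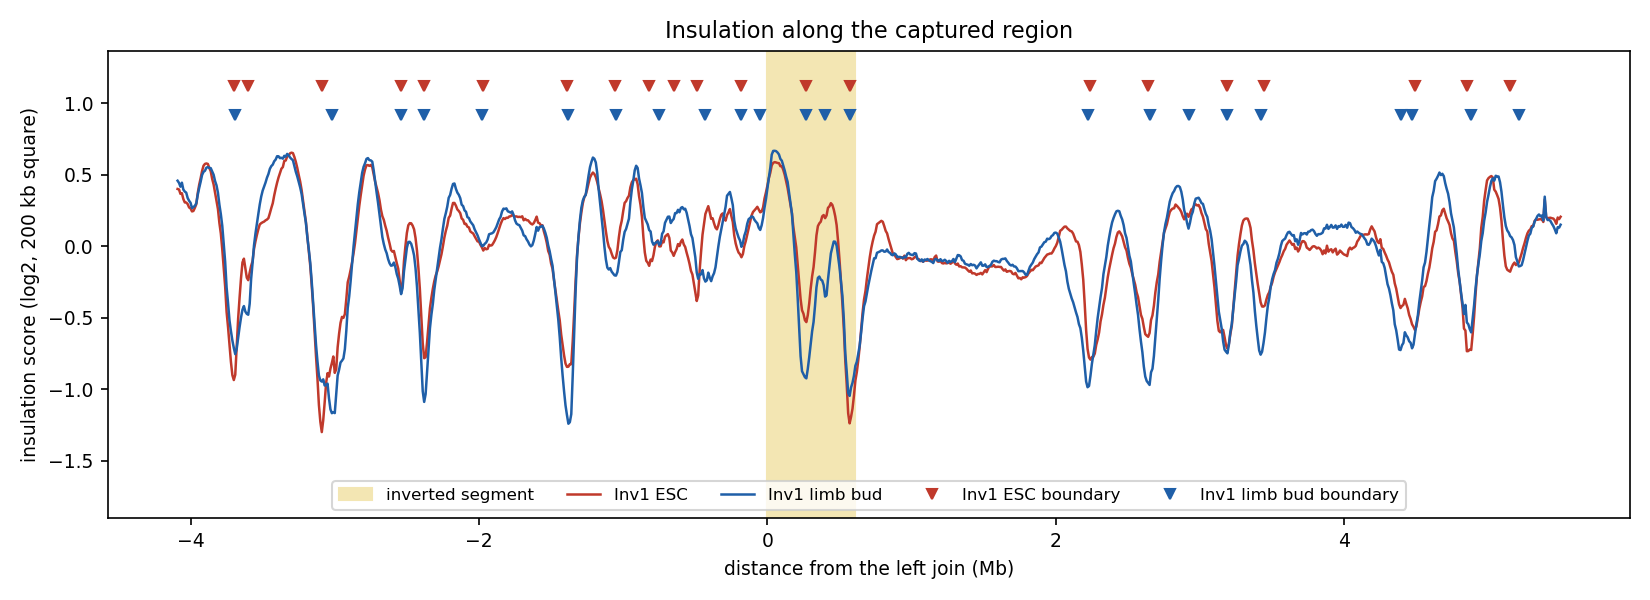
Insulation score (mean contact in a sliding square of 200 kb relative to the map mean, on a log2 scale) in Inv1 ESC and Inv1 limb buds by distance from the left join of the inversion (Mb), with the boundaries of each map as triangles and the inverted segment shaded. The troughs coincide at 15 boundaries, while their depth differs.

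The 6 boundaries with the largest difference in depth were examined. The border at 77.93 Mb (77.94 Mb in limb buds) had a depth of 0.74 in Inv1 ESC and 1.22 in Inv1 limb buds, and 1.22 and 1.21 in Inv1DelCTCF and WT limb buds. A border at 74.86 Mb, within the stretch from Wnt6 to Fev, was called in the 3 limb maps at 0.52, 0.52 and 0.46. It was not called in Inv1 ESC, where the depth at that place was 0.12. Boundaries were called there instead at 74.80 Mb, with a similar depth of 0.47, and at 74.64 Mb, with 0.35. The border at 75.86 Mb, beside the right join, went the other way, with a depth of 1.42 in Inv1 ESC and 1.02 in Inv1 limb buds.

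At 78.73 Mb (78.71 Mb in limb buds) the depth was 0.46 in Inv1 ESC and 0.80 in Inv1 limb buds. At 73.90 Mb it was 1.05 in Inv1 ESC and 1.39 in Inv1 limb buds. Last was a displaced border: the deepest trough of the region lay at 72.20 Mb in Inv1 ESC, with a depth of 1.84, and at 72.27 Mb in Inv1 limb buds, with a depth of 1.79. Inv1DelCTCF and WT limb buds had it at 1.76 and 1.80 near 72.27 Mb. In these 6 the 3 limb libraries lay close to each other wherever all could be scored.

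Within domains, contact was mostly lower in Inv1 ESC relative to its mean at the same distance (observed over expected). Of 14 domains between shared boundaries, 4 were higher in Inv1 ESC and 10 lower, with a median log2 ratio of -0.08. The largest domain, 75.87 to 77.52 Mb, here called the Epha4 domain after the locus, had a mean of 1.41 in Inv1 ESC and 1.65 in Inv1 limb buds (log2 ratio -0.23, interval -0.24 to -0.22). The domains at 79.78 to 80.16 Mb and 77.95 to 78.48 Mb were lower by similar amounts, with log2 ratios of -0.24 and -0.21.

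The domain with the largest gain lay in the inverted segment. At 75.57 to 75.86 Mb, where the turned genes lie, the mean was 1.51 in Inv1 ESC and 1.19 in Inv1 limb buds (log2 ratio 0.35, interval 0.32 to 0.37). The short domains at 72.76 to 72.91 Mb and 78.49 to 78.72 Mb followed with log2 ratios of 0.20 and 0.12. Inv1 ESC lay above the limb libraries in 4 domains, below them in 9 and within their range in 1.

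Contact between neighbouring domains was higher in Inv1 ESC for 7 of 13 pairs and lower for 6. The extremes adjoined each other. The domain left of the border at 75.56 Mb holds the genes from Cnppd1 to Resp18 and the moved piece of the Epha4 domain. Its mean contact with the turned genes across that border was 0.879 in Inv1 ESC and 0.619 in Inv1 limb buds (log2 ratio 0.51). It was 0.861 in Inv1DelCTCF limb buds, so 1 limb library lay close to the Inv1 ESC value. Between the turned genes and the Epha4 domain it was 0.819 in Inv1 ESC against 1.28 in Inv1 and 1.24 in Inv1DelCTCF limb buds (log2 ratio of Inv1 ESC over Inv1 limb buds -0.65).

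Differences over the whole map were collected in 200 kb block pairs. Of 1274 with at least 50 read pairs in each map, 5 were over 2-fold higher in Inv1 ESC (0.392%) and 8 over 2-fold lower (0.628%). None exceeded 2-fold between Inv1DelCTCF and Inv1 limb buds (0% in either direction). The SD of the log2 ratio was 0.37 for Inv1 ESC over Inv1 limb buds, compared with 0.16 between these limb libraries.

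Of the 6 largest gains, 4 joined the right part of the Epha4 domain to the sequence at 78.8 to 79.6 Mb. The largest was that of 76.8 to 77.0 Mb with 78.8 to 79.0 Mb, at 0.942 in Inv1 ESC and 0.424 in Inv1 limb buds, from 612 and 305 read pairs. The log2 ratio was 1.15 there, against 0.12 between the limb libraries. The other 3 had log2 ratios of 1.01 to 1.07. All 4 stayed below the expected value in Inv1 ESC, at 0.731 to 0.945. The remaining gains touched the segment, namely 73.8 to 74.0 with 75.8 to 76.0 Mb (1.04) and 74.8 to 75 with 75.6 to 75.8 Mb (0.99, from 9456 and 4133 read pairs).

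The losses converged on 1 place. The block at 77.6 to 77.8 Mb, just right of the Epha4 domain, took part in 4 of the 6 largest. With 74.8 to 75 Mb its value was 0.762 in Inv1 ESC and 1.85 in Inv1 limb buds, from 509 and 781 read pairs (log2 ratio -1.28). With 75 to 75.2 Mb it was 0.728 in Inv1 ESC and 1.7 in Inv1 limb buds (-1.22), with 74.2 to 74.4 Mb 0.540 and 1.25 (-1.22), and with 75.6 to 75.8 Mb 1.26 and 2.82 (-1.16), in the same order. WT and Inv1DelCTCF limb buds had 1.07 to 1.97 in the first 3. The other losses were 75.6 to 75.8 with 76.8 to 77.0 Mb (-1.15) and 72.4 to 72.6 with 78.8 to 79.0 Mb (-1.02).

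**Figure D3:**
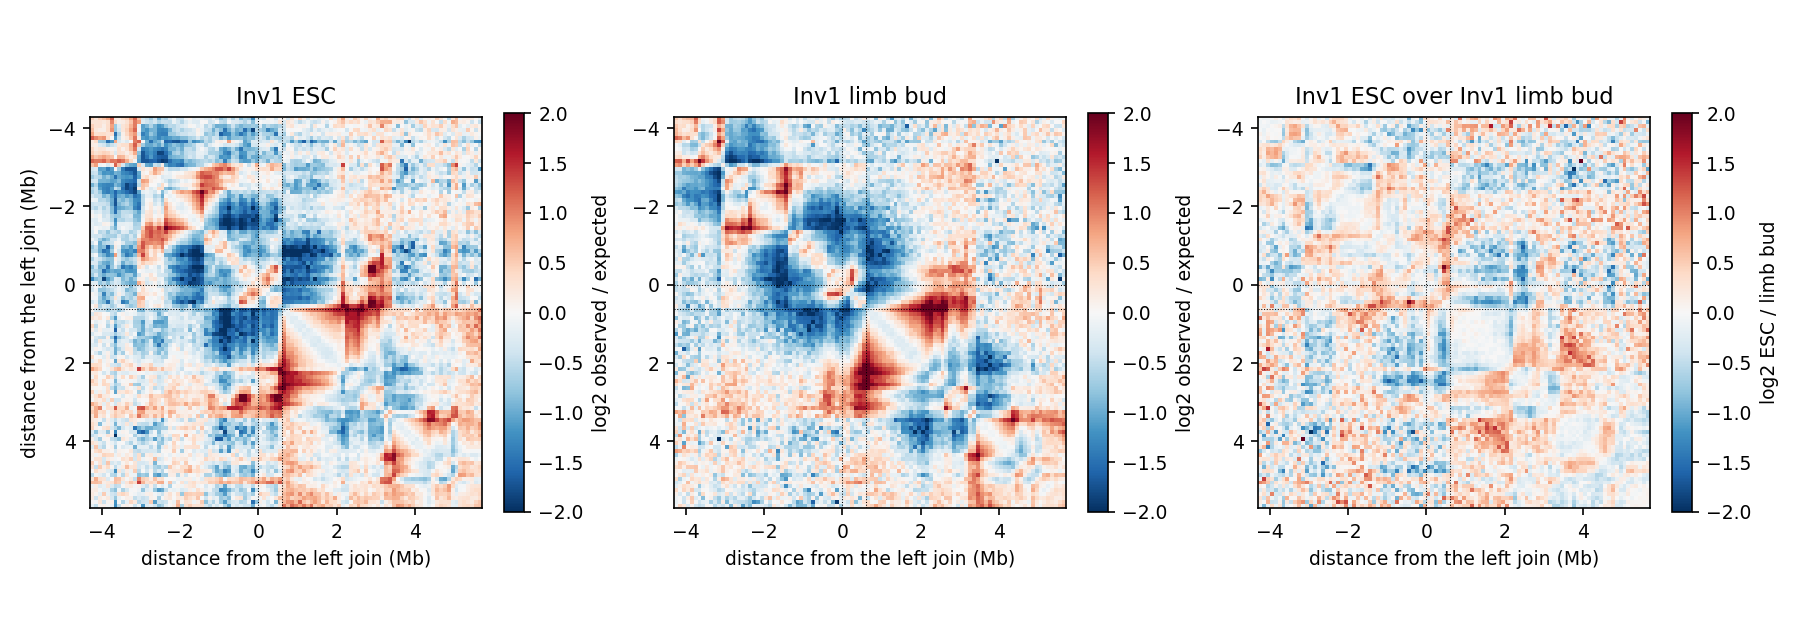
Observed over expected contact (log2, colour) in 100 kb blocks of Inv1 ESC (left) and Inv1 limb buds (centre), and the log2 ratio of Inv1 ESC over Inv1 limb buds (right); both axes give the distance from the left join in Mb and dotted lines mark the inverted segment. The Inv1 ESC map is crossed by bands of higher and lower contact far from the diagonal, and a spot stands where the stretch near -0.4 Mb meets that near 2.9 Mb.

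Over 2 Mb apart, the observed over expected contact of 3240 pairs of 100 kb blocks, without a log, was compared. It correlated at 0.63 between Inv1 ESC and Inv1 limb buds. Between Inv1DelCTCF and Inv1 limb buds the correlation was 0.80, and between Inv1 and WT limb buds 0.76. The pairs share blocks and depth, so these are descriptions. The first summary made was the first eigenvector of each map, which divides blocks into 2 states. In Inv1 ESC it changed sign 16 times along the region, and blocks of the same state had 1.37 times the contact of blocks of opposite state. In the limb maps it did not describe such a pattern: it changed sign 6 times, correlated with position at -0.51 in Inv1 limb buds, and same-state contact was 0.739 times cross-state contact. The states of the 2 maps were therefore not compared.

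With the states of the Inv1 ESC map read in each map instead, a reading added after these values were seen, same-state contact was 1.37 times cross-state contact in Inv1 ESC, 1.05 in Inv1, 1.05 in Inv1DelCTCF and 1.04 in WT limb buds. The states came from the Inv1 ESC map itself, which favours it. Its 37 positive blocks covered most of 72.2 to 73.0 Mb, of 73.9 to 75.8 Mb with the gene stretches and the segment, and of 78.1 to 78.7 Mb, with single blocks at 71.6, 77.4 and 79.7 Mb and a pair at 80.2 and 80.3 Mb. The Epha4 domain between 75.9 and 77.4 Mb was negative throughout.

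At the 2-fold threshold the ESC map held more focal contacts over long distances, although few of them had many read pairs. A focal contact was a 3 by 3 square of bins at least 200 kb apart with 2-fold the contact of the ring around it and at least 30 read pairs. There were 61 in Inv1 ESC (0.0607% of bin pairs scored) and 54 in Inv1 limb buds (0.0577%). The median distance was 2 Mb in Inv1 ESC and 1.265 Mb in Inv1 limb buds, and 30 of the Inv1 ESC contacts spanned over 2 Mb, against 8 in Inv1 limb buds. With both maps thinned to the same number of read pairs these counts were 19 in Inv1 ESC and 3 in Inv1 limb buds, and the medians 1.41 and 0.94 Mb. Thinning equals the totals, not the read pairs at each distance. At 2 to 4 Mb, 100 kb block pairs held a median of 102 read pairs in Inv1 ESC and 70.5 in Inv1 limb buds. The share of scored squares over 2 Mb was not counted, and whether more squares reached the minimum in Inv1 ESC was not tested. Of all called contacts, 7 were found in both maps, 11.48% of those of Inv1 ESC and 13.0% of those of Inv1 limb buds. Of the 54 in Inv1 limb buds, 23 (42.6%) were found among the 43 of Inv1DelCTCF limb buds (0.0442%), so many single contacts did not recur even between limb libraries. On simulated maps the same rule also called squares where no contact had been planted.

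With at least 60 read pairs, Inv1 ESC had 18 and Inv1 limb buds 30, so the order of the counts turned round. Then 5 were found in both, and 22 of the 30 recurred in Inv1DelCTCF limb buds (73.3%). Over 1 Mb there were 11 in either map at that minimum, and over 2 Mb 4 in Inv1 ESC and 1 in Inv1 limb buds. Of the contacts named below, some had many read pairs and others lay near the minimum of 30.

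The 4 focal contacts of highest value in Inv1 ESC met at 78.20 Mb. The mean contact of this bin over 2 Mb, which includes these 4 contacts, was 2.03 times the expected value in Inv1 ESC. That was rank 1 of 998 bins, against 1.32 and rank 81 in Inv1 limb buds. Which gene lies in this bin was not determined here. With 74.83 Mb, in the stretch from Wnt6 to Fev, its value was 16.9 in Inv1 ESC, against 4.02 in Inv1, 5.32 in Inv1DelCTCF and 2.46 in WT limb buds. The squares held 184 read pairs in Inv1 ESC and 24, 26 and 20 in the limb libraries, so Inv1 ESC stood above all 3. The ring ratio of this contact was 5.22 in Inv1 ESC, 1.79 in Inv1, 2.51 in Inv1DelCTCF and 1.19 in WT limb buds. Inv1DelCTCF limb buds thus also passed the ring threshold, but with fewer read pairs than a call required. The fold of Inv1 ESC over Inv1 limb buds was 4.2 (interval 2.72 to 6.47), at a distance of 3.37 Mb.

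With 74.93 Mb, at the edge between the stretch from Wnt6 to Fev and that from Cryba2 to Slc23a3, the bin at 78.20 Mb had 14.0 in Inv1 ESC and 2.21 in Inv1 limb buds. These came from 194 and 16 read pairs, a fold of 6.34 (interval 3.78 to 10.6). Inv1DelCTCF and WT limb buds had 4.44 and 3.62. With 75.79 Mb, among the turned genes, it had 12.8 in Inv1 ESC and 3.60 in Inv1 limb buds, a fold of 3.55 (interval 2.53 to 4.97). With 75.67 Mb, on the same piece, it had 8.29 in Inv1 ESC and 2.90 in Inv1 limb buds, a fold of 2.86 (interval 1.95 to 4.18). In WT order the sequences at 75.79 and 75.67 Mb lie at 75.37 and 75.49 Mb, and in WT limb buds they met 78.20 Mb at 2.01 and 2.68.

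The weaker partners had fewer read pairs. At 74.15 Mb the value was 4.35 in Inv1 ESC and 1.08 in Inv1 limb buds, from 33 and 5 read pairs (fold 4.04, interval 1.56 to 10.4). At 80.33 Mb it was 2.37 in Inv1 ESC and 1.22 in Inv1 limb buds (fold 1.93, interval 1.09 to 3.43), and Inv1DelCTCF limb buds, at 2.02, lay close to Inv1 ESC.

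**Figure D4:**
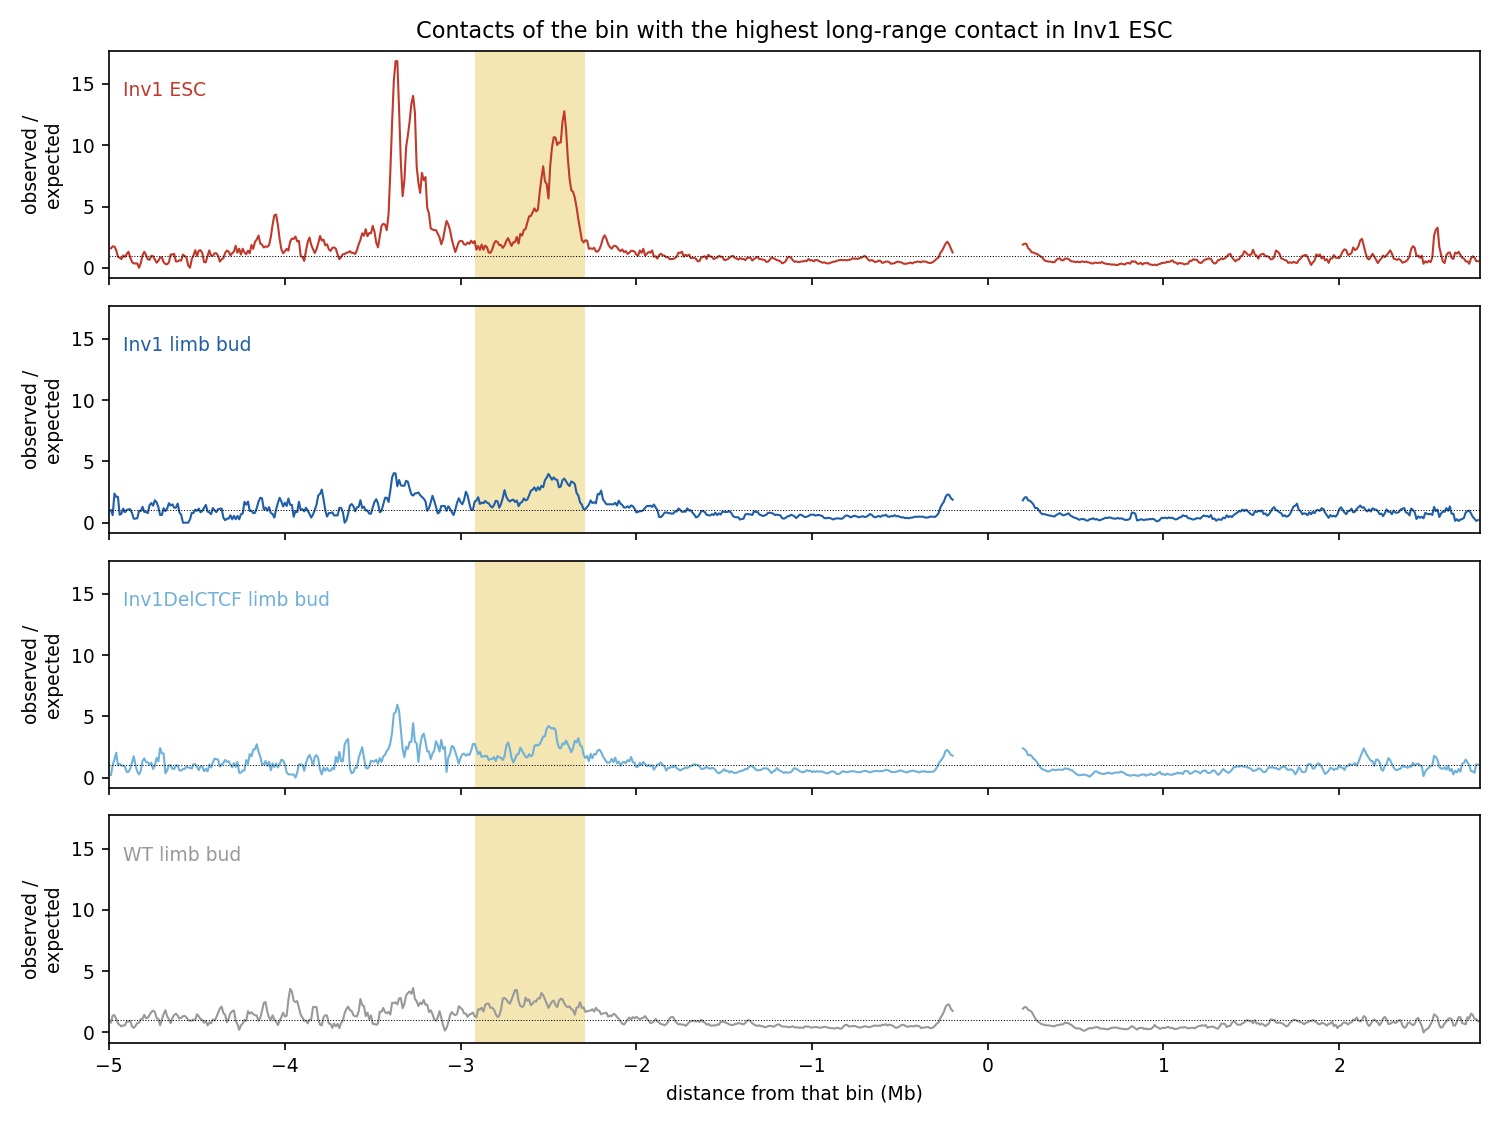
Contact of the bin at 78.20 Mb, with 1 bin on either side, along the region, as observed over expected by distance from that bin (Mb), in Inv1 ESC, Inv1 limb buds, Inv1DelCTCF limb buds and WT limb buds from top to bottom; the inverted segment is shaded, and in WT its sequence runs in the opposite order. The Inv1 ESC profile peaks at 16.9, 14.0 and 12.8, where Inv1 limb buds had 4.02, 2.21 and 3.60.

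Contact among the partners was also higher in Inv1 ESC, though mostly not focal. The 5 partners from 74.15 to 75.79 Mb form 10 pairs without 78.20 Mb, all higher in Inv1 ESC, by 1.73- to 5.43-fold, and the counting interval lay above 1 in all 10. Of the 8 pairs far enough apart to have a ring, only that of 74.83 and 75.79 Mb passed 2-fold above it in Inv1 ESC, at 2.26, and the other 7 had 1.36 to 1.82. Over 12312 squares on a fixed grid at the distances of these and the 5 pairs with 78.20 Mb, with at least 30 Inv1 ESC read pairs, 4.53% were over 2-fold higher in Inv1 ESC and for 20% the interval lay above 1, at a median fold of 1.05. The anchors were chosen for their contacts in Inv1 ESC, so this count is a description. The pair of 74.83 and 75.79 Mb had 3.67 in Inv1 ESC and 0.675 in Inv1 limb buds, from 251 and 38 read pairs (fold 5.43, interval 3.84 to 7.69). Inv1DelCTCF limb buds had 0.843. The pair of 74.93 and 75.79 Mb had 2.97 in Inv1 ESC and 0.751 in Inv1 limb buds, a fold of 3.96. The anchors at 74.83 and 74.93 Mb, only 0.1 Mb apart, had 2.97 in Inv1 ESC and 1.09 in Inv1 limb buds, from 2277 and 557 read pairs. Of the 6 pairs with 80.33 Mb, the interval lay above 1 for 1.

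The other focal contacts that were strongest in Inv1 ESC, or furthest above Inv1 limb buds, did not include the bin at 78.20 Mb. Their choice by values of the Inv1 ESC map favours that map. That of 71.70 and 72.84 Mb stood 3.16-fold above its ring in Inv1 ESC, against 1.14-fold in Inv1 limb buds, from 101 and 30 read pairs. Those of 75.68 with 80.32 Mb, 72.27 with 77.45 Mb, 77.46 with 79.67 Mb and 76.03 with 80.22 Mb had ring ratios of 2.90 to 3.05 in Inv1 ESC and 0.598 to 1.87 in Inv1 limb buds. They rested on 31 to 36 read pairs in Inv1 ESC and 5 to 9 in Inv1 limb buds, close to the minimum. The square of 75.68 with 80.32 Mb overlaps that of 75.67 with 80.33 Mb, a pair counted in the paragraph above. That pair had 26 read pairs in Inv1 ESC and 5 in Inv1 limb buds (fold 2.55, interval 0.941 to 6.91).

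The focal contacts of highest ring ratio in Inv1 limb buds had lower ratios in Inv1 ESC. These contacts were chosen by their values in Inv1 limb buds, which favours that map, so the direction is only a description. That of 72.91 and 73.87 Mb, which lie near borders, was 2.48-fold above its ring in Inv1 ESC and 3.81-fold in Inv1 limb buds, from 588 and 1061 read pairs, and 3.51- and 3.76-fold in Inv1DelCTCF and WT limb buds. That of 72.91 and 73.66 Mb was 1.77-fold in Inv1 ESC, below the threshold, and 2.99-fold in Inv1 limb buds, from 330 and 686 read pairs. The contact of 80.18 and 80.51 Mb differed less, at 2.14-fold in Inv1 ESC and 2.72-fold in Inv1 limb buds, from 505 and 507 read pairs.

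Within the inverted chromosome, 75.11 Mb and 75.53 Mb were 1.71-fold above their ring in Inv1 ESC and 2.71-fold in Inv1 limb buds, from 191 and 262 read pairs. In Inv1DelCTCF limb buds the ratio was 0.874. The remaining leading contacts of Inv1 limb buds, 78.04 with 80.34 Mb and 73.99 with 75.66 Mb, had 36 and 31 read pairs and ratios of 1.16 and 1.76 in Inv1DelCTCF limb buds. The 5 contacts furthest above Inv1 ESC were that of 78.04 with 80.34 Mb and those of 75.90 with 78.66, 79.24 with 80.11, 77.92 with 80.22 and 73.93 with 74.51 Mb. They had 12 to 27 read pairs in Inv1 ESC and 30 to 53 in Inv1 limb buds, and none reached 2-fold in Inv1DelCTCF limb buds.

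The inverted segment consists of 2 pieces with a border between them. The left piece, 75.29 to 75.55 Mb, is the part of the Epha4 domain that the inversion carried next to the genes. The right piece, 75.55 to 75.90 Mb, holds the turned genes that begin with Dnpep in WT order and now adjoins the rest of the Epha4 domain. Both tissues carry this arrangement, so the comparison shows how either piece is connected in ESCs and in limb buds.

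The moved part of the Epha4 domain had nearly equal shares in both maps with the stretches from Cnppd1 to Resp18 and Cryba2 to Slc23a3. Its share differed most with the turned genes on its other side (log2 ratio 0.57, described below). It kept 50.7% of its signal within itself in Inv1 ESC and 56.3% in Inv1 limb buds. With the genes from Cnppd1 to Resp18 it shared 11.6% in Inv1 ESC and 11.3% in Inv1 limb buds. With Cryba2 to Slc23a3, the stretch of Ihh, it shared 7.62% in Inv1 ESC and 7.27% in Inv1 limb buds (log2 ratio 0.07, interval 0.02 to 0.11). Inv1DelCTCF limb buds, at 9.48% and 5.17%, lay further from Inv1 limb buds in these stretches than Inv1 ESC did. With Wnt6 to Fev its share was 1.81% in Inv1 ESC and 2.31% in Inv1 limb buds (log2 ratio -0.35, interval -0.41 to -0.29), and 1.82% in Inv1DelCTCF limb buds. Beyond these genes its shares were higher in Inv1 ESC, with log2 ratios of 0.23 at 73.90 to 74.79 Mb and 0.29 at 71 to 73.90 Mb.

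Its contact with the turned genes across the border was higher, at 9.68% in Inv1 ESC against 6.54% in Inv1 limb buds (fold 1.48), and Inv1DelCTCF limb buds had 9.58%. With the rest of the Epha4 domain, from which the inversion had parted it, the share was 5.85% in Inv1 ESC, 5.55% in Inv1 limb buds and 6.89% in Inv1DelCTCF limb buds. With 77.51 to 77.93 Mb it was 1.04% in Inv1 ESC and 1.34% in Inv1 limb buds (log2 ratio -0.37, interval -0.46 to -0.29). Further right the direction turned, with 2.11% in Inv1 ESC and 1.53% in Inv1 limb buds at 77.93 to 78.71 Mb (log2 ratio 0.46, interval 0.38 to 0.53), and 1.95% in Inv1 ESC and 1.52% in Inv1 limb buds at 78.71 to 81 Mb (0.36).

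The turned genes differed more. With the rest of the Epha4 domain their share was 14.6% in Inv1 ESC and 20.01% in Inv1 limb buds (log2 ratio -0.45, interval -0.47 to -0.43). With 77.51 to 77.93 Mb, the domain beyond, it was 2.10% in Inv1 ESC and 4.49% in Inv1 limb buds (log2 ratio -1.10, interval -1.14 to -1.05). With Wnt6 to Fev it was 2.27% in Inv1 ESC and 1.25% in Inv1 limb buds (log2 ratio 0.86, interval 0.80 to 0.91), and with Cnppd1 to Resp18 3.88% in Inv1 ESC and 2.64% in Inv1 limb buds. Inv1DelCTCF limb buds had 19.8%, 4.32%, 1.11% and 3.33% with these 4 regions, nearer to Inv1 limb buds than to Inv1 ESC in the first 3. Summed over each side, the turned genes made 16.2% of their contacts to the left and 22.5% to the right in Inv1 ESC, against 12.1% and 29.3% in Inv1 limb buds.

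**Figure D5:**
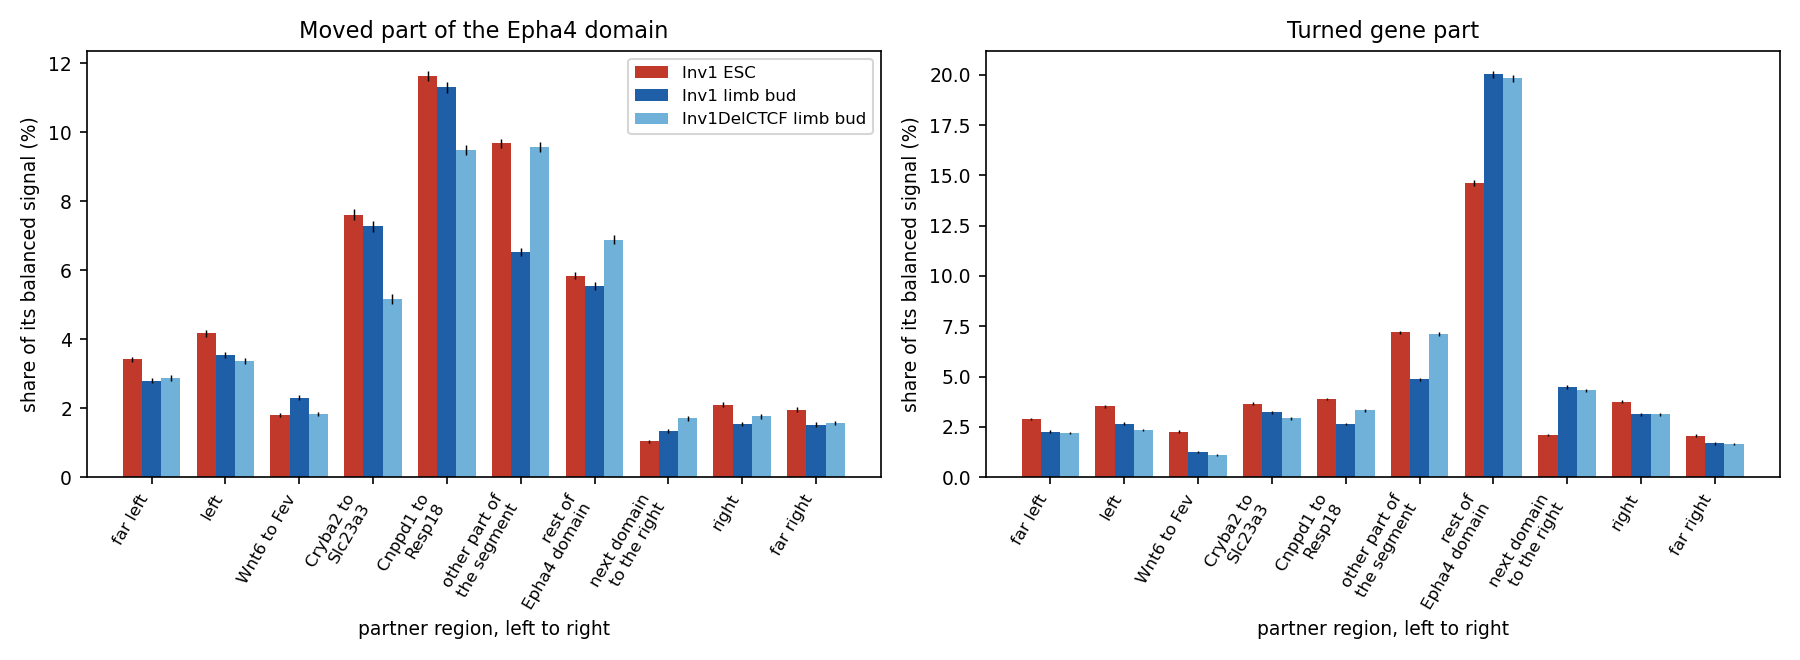
Share of balanced signal (percent, bars with 95% counting intervals) of the moved part of the Epha4 domain (left) and of the turned gene part (right) with each partner region from left to right, in Inv1 ESC, Inv1 limb buds and Inv1DelCTCF limb buds; signal of a piece with itself is left out. The turned genes had 14.6% with the rest of the Epha4 domain in Inv1 ESC and 20.01% in Inv1 limb buds.

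The stripe that leaves the moved piece toward the genes was weaker in Inv1 ESC. A stripe is a line of raised contact on 1 side of an anchor, here a bin near 75.52 Mb beside the border, and its score is the log2 ratio of the anchor to its flanks. Between 100 and 1500 kb it was 0.25 in Inv1 ESC, 0.59 in Inv1 limb buds and 0.08 in Inv1DelCTCF limb buds. The difference of -0.34 compares with an SD of 0.11 of the same difference over 700 other bins. Between 310 and 600 kb the score was 0.53 in Inv1 ESC and 1.00 in Inv1 limb buds. Contact at the joins differed less. Across the left join the mean contact was 1.39 in Inv1 ESC and 1.3 in Inv1 limb buds, and across the right join 0.477 in Inv1 ESC and 0.534 in Inv1 limb buds.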

How the data were processed

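Contact maps were taken as deposited. Each lists a signal value per pair of 10 kb bins on mm9 coordinates. The signal was balanced by the authors with Knight-Ruiz scaling, as the file names mark it. The submitters' processing notes name Bowtie2 2.2.6 and Juicer. Balancing gives every bin the same sum, so shares are relative. The deposited gene tables of the other libraries hold a score per gene in an unstated scale and served only for gene order. In them 79 distinct WT values were set against sums of map bins, at most 7 matched, and no gene was placed in a bin.

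Read pairs were recovered by fitting 1 factor per bin; 100% of values under 100 read pairs then differed from a whole number by under 0.01. Expected values were means per distance over 996 of 1000 bins, without sparse bins (fewer listed pairs than 25% of the median bin). Counting intervals are 95% intervals by error propagation from read pairs; read pairs are not independent molecules. Recovery of read pairs, boundary calls and focal calls were tested on simulated data (Python 3.11.15, NumPy 2.4.6). Most planted borders, and most planted contacts with enough read pairs, were found, but the focal rule also called squares that had not been planted. No contact over 2 Mb apart was planted, so recovery at that distance was not tested. With 1 library per group no test was made. Regions named are the 6 boundaries with the largest difference in depth, the 3 highest and 3 lowest domains, the 6 largest block differences each way and the 6 strongest focal contacts per map with the 5 largest differences each way. The 78.20 Mb anchors were added after their values were seen, and members and lists were chosen with earlier results of these data known. The Inv2 to Inv4 maps, which hold a library minus WT signal, were used only for breakpoints.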

Additional observations from a re-analysis of the deposited data

How the results depend on the processing

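No single value changed direction under the alternatives that were run, but the order of the focal counts of both maps turned at 60 read pairs; the cause of each move below was not tested. No paired analysis was possible because each group has 1 library and no test was made. For the log2 ratio of Inv1 ESC over Inv1 limb buds, pairs outside the segment gave 0.18 at 100 to 500 kb and -0.12 at 1 to 2 Mb, and recovered read pairs gave 0.19 and -0.18. Shared boundaries numbered 26 with a 100 kb square, out of 33 in either map. The long-range correlation was 0.44 with 50 kb blocks, 0.75 with 200 kb blocks and 0.75 from 1 Mb, and same-state over cross-state contact from 1 Mb was 1.46 in Inv1 ESC and 0.659 in Inv1 limb buds (1.13 with ESC states). Block pairs over 2-fold higher and lower in Inv1 ESC made up 0.959% and 1.5% with 100 kb blocks, and 0.157% and 1.02% with medians in place of means at each distance. Focal contacts numbered 245 in Inv1 ESC and 181 in Inv1 limb buds at a ring ratio of 1.7 (173 and 116 over 1 Mb apart, 69 and 21 over 2 Mb), and 22 and 9 at 2.5 (20 and 3, 16 and 1). At 60 read pairs they numbered 18 and 30 (11 and 11, 4 and 1). With maps thinned to equal depth 19 and 3 lay over 2 Mb. With limits moved inward by 20 kb the log2 ratio of the turned genes with the Epha4 domain was -0.53 and that across the right join -0.28. Wider flanks gave a stripe difference of -0.45. The other 42 values kept within 1.5 times of a count, the counting interval of a ratio, 0.05 of a correlation or state ratio, or the limb libraries' SD of the stripe difference. Among them, shared boundaries numbered 12 with a 300 kb square, out of 17 in either map, and thinning gave 41 and 21 focal contacts over 1 Mb. The alternative for single gene bins was not run, since none could be settled. Depth limits single contacts beyond 4 Mb, where 100 kb block pairs at 4 to 6 Mb held a median of 55 read pairs in Inv1 ESC and 36 in Inv1 limb buds.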
